A study of Homo sapiens with 5 samples.

Results

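The sites described here are poly(A) sites that the deposited table leaves without a gene, although a site assigned to a gene lies just upstream of them. A site was included when its row carried no gene identifier, was not on the mitochondrial genome, and had the nearest upstream row with a gene on the same chromosome and strand within 10000 bp. The rule found 1902 of 29996 sites, which is 37.7% of the 5048 unannotated sites outside the mitochondrial genome. They are called downstream sites below, and they follow 1571 genes. The rule used positions and annotation only, and no read count.

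RNA 3′ ends were sequenced in H9, a human embryonic stem cell line grown in mTeSR medium without treatment. There were 3 CFIm25 KO libraries and 2 control libraries, whose genotype the labels give as control KO, and the technique named for both is CRISPR-Cas9. Per the study, the edited lines are single-cell clones and its controls are clones that received the vector without a guide, but the labels do not tie a library to a clone. The edited clones keep a low level of CFIm25 protein with a short stretch missing near its start, so that "KO" is used here as the label's name only. A p-value here measures only the spread between these libraries, and differences between clones cannot be told apart from the edit.

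Cleavage and polyadenylation set the 3′ end of nearly every messenger RNA. The cleavage and polyadenylation specificity factor recognises a hexamer, AATAAA or its common variant ATTAAA, a short way upstream of the cut. Upstream of many sites the RNA also holds UGUA, to which CFIm25, the NUDT21 product within cleavage factor I, binds. Transcripts that end beyond the annotated end of a gene carry extra 3′ UTR sequence, continue into the intergenic region, or belong to the next gene.

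Where an exon of GENCODE version 44 reached the site, the transcript sequence before it could be read. The sequences below are those of the 10 sites with the most reads, of the core pluripotency genes, of the 3 genes called for their downstream share, and of P2RY11 and ACOT9, which DESeq2 called, wherever an exon reached the site. Each run is 30 bases, 5′ to 3′ on the transcribed strand, and ends at the site, or at the last exon base 1 position before it for AASS, SALL4, P2RY11, ANKRD10 and OBSL1. Capitals mark the hexamer nearest the site, and the windows of SFRP2, OTX2 and ACOT9 hold neither hexamer.
EEF2: attggaatAATAAAtttgataaggtggtga
HMGCS1: tttgaAATAAAgttttagagaaatgtttca
GDI2: ctgcaaAATAAAgccaaattctggaaacta
IGF2BP1: ttcaaAATAAAaggaaacttatattgaaag
DDX17: gtaggtataAATAAAaacactgttgacaat
NPM3 (downstream of OGA): gttgaAATAAAgtggtgtggagtttttgca
NANOG: ggtccttgAATAAAgtgtgcttgagaattt
P2RY11: aaacAATAAAggactgtcccctcaaaacca
MMGT1: taagAATAAAtttaatgtatttttccagta
ANKRD10: cacaaattgAATAAAaaactctcacactca
OBSL1: gacaaggaacAATAAAagtgctacagctca
RPL6: cttaagaacctaATTAAAtagctgactaca
DPYSL3: cctggttATTAAAataactatgaaattacc
SLC7A3: aaatgatATTAAAagaaagtagaaaaataa
L1TD1: ctcgaatatATTAAAtctttttcctttgaa
AASS: tcaagttgttataaaaaATTAAAttacaaa
SALL4: aaAATAAAatttgaatgtttttttttctca
SFRP2: tgtatataaactttacatcctgttttacct
OTX2: gttttaaatgaaggttagcagttgcaacca
ACOT9: aatgttgcagtaaatatcctaaatactcta
All of these windows lie in exons of GENCODE transcripts, and their GRCh38 positions are chr19:3976056-3976085 for EEF2, chr5:43289395-43289424 for HMGCS1, chr10:5765223-5765252 for GDI2, chr17:49056112-49056141 for IGF2BP1, chr22:38483440-38483469 for DDX17, chr10:101781325-101781354 for NPM3 and chr12:7799115-7799144 for NANOG. The remaining windows lie at chr19:10115343-10115372 for P2RY11, chrX:135960588-135960617 for MMGT1, chr13:110878540-110878569 for ANKRD10, chr2:219550728-219550757 for OBSL1, chr12:112405190-112405219 for RPL6, chr5:147390810-147390839 for DPYSL3, chrX:70925580-70925609 for SLC7A3, chr1:62212299-62212328 for L1TD1, chr7:122073549-122073578 for AASS, chr20:51782331-51782360 for SALL4, chr4:153780592-153780621 for SFRP2, chr14:56799905-56799934 for OTX2 and chrX:23701058-23701087 for ACOT9. IGF2BP1, NANOG, P2RY11 and L1TD1 are on the plus strand, and the other genes are on the minus strand.

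Most downstream sites with readable sequence carried a poly(A) signal hexamer. Sequence could be read for 1006 of the 1902 downstream sites, namely those with at least 50 contiguous exon bases before them. Of these 1006 sites, 796 lay within 25 bp of an annotated end of the upstream gene. The downstream shares below therefore mainly describe such ends. The last 50 bases held AATAAA at 67.5% of the 1006 sites, ATTAAA without AATAAA at 16.3%, and neither at 16.2%. The corresponding shares among 18105 annotated 3′ UTR sites were 59.6%, 16.9% and 23.5%, searched in windows of the same length on the transcribed strand. Unannotated sites outside the mitochondrial genome with no gene's site within 10000 bp upstream on the same strand are called distant unannotated sites below. A gene's site can lie nearer to them downstream or on the other strand. Among 1198 of these distant sites the shares were 72.2%, 16.0% and 11.8%. Sequence was readable for 97.9% of annotated 3′ UTR sites and for 38.1% of distant unannotated sites. The last AATAAA, or the last ATTAAA where the window held no AATAAA, began a median of 22 bases before the site in all 3 groups. TGTA, the DNA form of the CFIm25 motif, was present in the stretch 100 to 41 bases before the site at 44.1% of 1003 downstream sites. The same stretch held TGTA at 42.0% of 17949 annotated 3′ UTR sites and at 38.7% of 1193 distant unannotated sites. A match of letters describes the window and does not show that a factor binds there.

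The downstream sites lay between 49 and 9996 bp from the upstream site, with quartiles of 673, 1912.5 and 4491 bp. The upstream site was annotated as 3′ UTR for 1573 of them, as another exon for 212 and as intron for 117. A single downstream site followed 1322 genes, 2 followed 194 genes, 3 followed 41 genes, and 14 genes had 4 or more. The library totals ran between 5203908 and 7783102 reads. The median downstream site held 16 to 25 reads per library, and between 4 and 10 of the 1902 sites had no read in a given library.

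The level of NUDT21 was lower in CFIm25 KO, with 118, 117 and 120 CPM (reads scaled to the normalised library size) in the 3 CFIm25 KO libraries against 201 CPM in both control libraries. The log2 fold change of the gene was -0.77 (SE 0.112, edgeR adjusted p = 0.0324). The adjusted p was 0.151 without CFIm25 KO 1, 0.856 without control 1 and 0.995 without control 2, while the change stayed between -0.78 and -0.75. The edit lies near the start of the gene and the 3′ tags at its end, so this level does not check the edit. All 9 embryonic stem cell markers were measured, and their summed level was 3244 to 4845 CPM. Gene levels in this paragraph use annotated sites only, which leaves out downstream sites such as those of NANOG and SALL4. LIN28A had 678 CPM in control 2, against 1783 to 2507 CPM in the other libraries. Of the marker lists for other lineages, ectoderm and neural summed to 97.6 to 279.7 CPM, with the highest value in CFIm25 KO 2, and PAX6 and SOX1 of that list had no site in the table. The fibroblast, mesoderm, trophoblast and endoderm lists summed to at most 54.0 CPM in any library. In bulk RNA, fewer cells of a type and less RNA per cell cannot be told apart.

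Although the table assigns them to no gene, most reads at downstream sites fell on transcript ends that GENCODE or RefSeq annotates. Of the 1902 sites, 886 (46.6%) lay within 25 bp of an annotated end of the upstream gene itself, and these held 82.8% of the reads. A further 102 sites lay at an end of another gene on the same strand and held 7.16% of the reads. Exons of the upstream gene held 114 sites, exons of another gene 8, and introns 95. The remaining 697 sites (36.6%) lay in no gene of the same strand and held 7.13% of the reads. Sites at an end of the upstream gene had a median of 5.37 CPM, and sites in no gene had a median of 2.03 CPM. A gene on the opposite strand covered 557 of the 1902 sites.

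**Figure D1:**
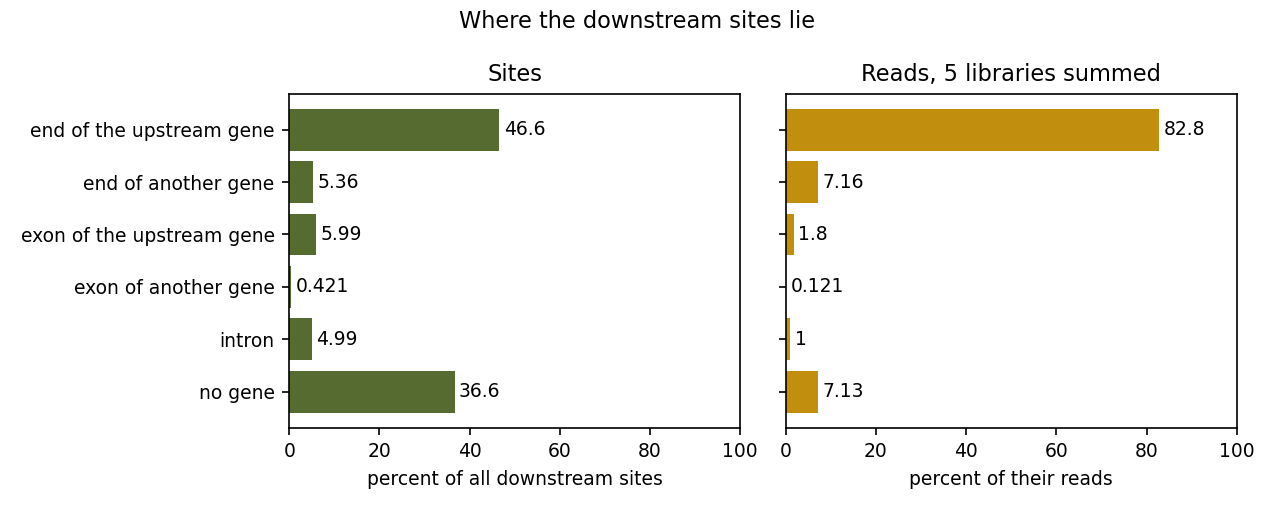
Share of the 1902 downstream sites (left, percent of sites) and of their reads summed over 5 libraries (right, percent of reads) in each kind of place, with an end counted within 25 bp. Ends of the upstream gene held 46.6% of the sites and 82.8% of the reads, whereas sites in no gene were 36.6% of the sites and 7.13% of the reads.

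The placement changed with the distance from the upstream site. An end of the upstream gene was found at 66.7% of the 192 sites up to 200 bp away and at 64.1% of the 418 sites over 200 and up to 1000 bp away. This share was 52.2% of 364 sites up to 2000 bp, 39.6% of 523 sites up to 5000 bp, and 23.0% of 405 sites up to 10000 bp, each counted from the limit before. Sites in no gene made up 26.04% of the sites of the nearest range and 48.4% of those of the farthest.

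Where a downstream site lay near a GENCODE transcript end, it was usually exactly at or past the last base. Of 931 such sites within 25 bp of an end, 33.7% were at the last base itself and 73.6% were at or past it. Annotated 3′ UTR sites near an end numbered 11389, of which 15.4% were at the last base and 38.8% at or past it. Of 1147 distant unannotated sites near an end, 76.7% were at or past the last base. Both unannotated groups were chosen for having no gene in the deposited annotation, and the 3′ UTR sites for having one. Their contrast in position is therefore not independent of that choice. An annotated end of any gene was within 25 bp of 51.9% of downstream sites, 62.0% of annotated 3′ UTR sites and 41.9% of the distant unannotated sites.

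**Figure D2:**
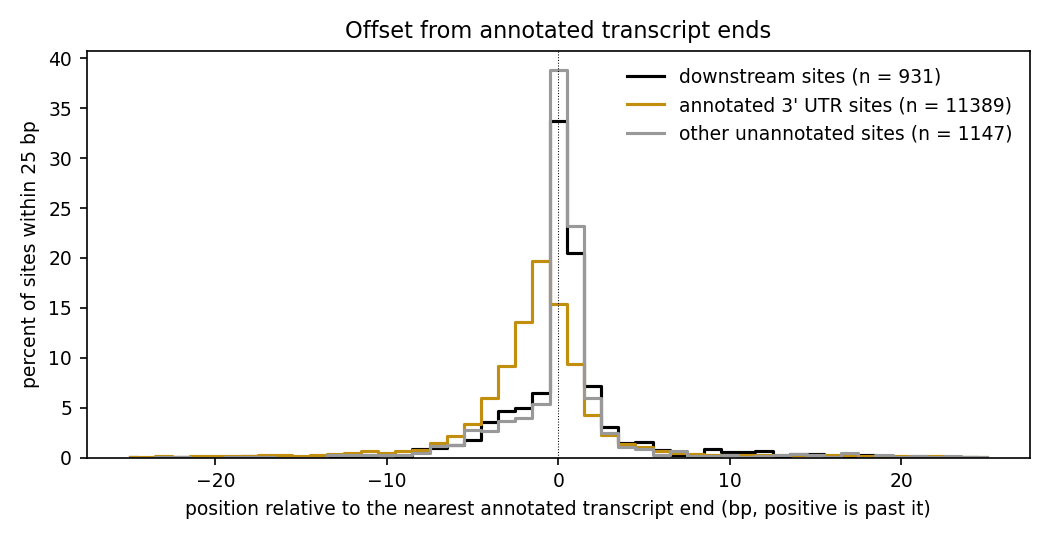
Position of sites relative to the nearest GENCODE transcript end (bp on the x axis, positive values past the end) as a percent of the sites within 25 bp of an end. The downstream sites (n = 931) and the distant unannotated sites (other in the legend, n = 1147) peak at 0, with 33.7% and 38.8% of the sites, and the annotated 3′ UTR sites (n = 11389) have 15.4% there.

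The downstream site with the most reads was that of EEF2. EEF2, which encodes the elongation factor that moves the ribosome along the messenger RNA, had its site 5370 bp downstream of an exonic site, at position 3976056 of chromosome 19. It held 25565, 23161 and 13680 reads in the CFIm25 KO libraries and 15144 and 14229 reads in the control libraries. Scaled for depth, this was 3057 ± 518 CPM in CFIm25 KO (SD, n = 3) and 2796 ± 64.3 CPM in control (SD, n = 2). The groups overlapped, and the log2 fold change was 0.13 (SE 0.137). The site was the last base of EEF2 as annotated, shown above with its AATAAA, and did not pass the test (edgeR adjusted p = 0.874).

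RPL6, a protein of the large ribosomal subunit, followed with 1892 ± 11.6 CPM in CFIm25 KO and 1881 ± 77.9 CPM in control, 670 bp beyond its upstream site. HMGCS1, which makes HMG-CoA for cholesterol synthesis, had 1304 ± 177 CPM in CFIm25 KO and 1514 ± 98.0 CPM in control. DPYSL3, a cytoskeleton-binding protein of developing neurons, had 1305 ± 117 CPM in CFIm25 KO and 1257 ± 0.249 CPM in control. HMGCS1 did not overlap between the groups, and the other 2 sites did.

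AASS, which begins lysine breakdown in mitochondria, had 1192, 1391 and 1196 CPM in the CFIm25 KO libraries, against 861 and 1043 CPM in the control libraries. SLC7A3, a transporter of cationic amino acids, had 1114, 1378 and 937 CPM in CFIm25 KO, against 723 and 866 CPM in control. Both sites were higher in every CFIm25 KO library than in either control library. Their log2 fold changes of 0.40 (SE 0.130) and 0.52 (SE 0.161) did not pass edgeR's test after adjustment over all sites, with adjusted p = 0.407 and 0.399.

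The remaining sites of this abundance did not separate the groups. GDI2, which recycles Rab proteins, had 1121 ± 69.0 CPM in CFIm25 KO and 1120 ± 104 CPM in control. IGF2BP1, an RNA-binding protein of fetal and stem cells, had 831 ± 87.6 CPM in CFIm25 KO and 817 ± 77.7 CPM in control. DDX17, an RNA helicase, had 719 ± 110 CPM in CFIm25 KO and 632 ± 4.70 CPM in control, at a site 8501 bp beyond an exonic site. All 3 sites overlapped between the groups.

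Some downstream sites were ends of the next gene rather than of the gene upstream. The site 3123 bp beyond OGA, the enzyme that removes O-GlcNAc from proteins, was the end of NPM3, a nucleoplasmin-family histone chaperone. It held 1186 ± 174 CPM in CFIm25 KO and 955 ± 120 CPM in control. The site 6574 bp beyond FLNC, the muscle filamin, was the end of ATP6V1F, a subunit of the vacuolar proton pump, with a mean of 254.3 CPM over the 5 libraries. The site 8769 bp beyond CAMTA2 was the end of SPAG7 (204.0 CPM), and the site 9356 bp beyond URGCP was the end of MRPS24, a mitochondrial ribosomal protein (92.5 CPM). None of these 4 sites passed the test between the groups.

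For many genes the downstream sites held a large part of the reads. The share of a gene's reads at downstream sites was computed for the 924 genes with at least 100 reads in every library over both kinds of site. Its median was 10.5%, with quartiles of 3.02% and 61.2%. The share was over 50% in every library for 242 genes and over 90% in every library for 90 genes, and it was under 5% in every library for 261 genes. Of the 242 genes, 196 also had an annotated 3′ UTR site in the table. The downstream sites of 57 of the 924 genes include an end of another gene, so that reads there may not be of the upstream gene. These make up 22 of the 242 genes, and without them the median share was 10.1% over 867 genes. The 527 genes with a downstream site at an annotated end of their own had a median of 31.7%, and the other 397 had a median of 4.08%.

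EEF2, DDX17, CDC37, UBXN7 and FBL had the highest mean shares of these 924 genes. EEF2 had 99.9%, 99.9% and 99.8% of its reads downstream in CFIm25 KO and 99.9% in both control libraries. FBL, the methyltransferase of box C/D small nucleolar RNPs, had 99.7%, 99.3% and 99.7% in CFIm25 KO and 99.3% and 99.6% in control. UBXN7, a cofactor of the p97 segregase, had 99.5%, 99.4% and 99.6% in CFIm25 KO and 99.2% and 99.9% in control. FBL and UBXN7 overlapped between the groups, and EEF2 was lower in every CFIm25 KO library by under 1 percentage point without passing the test (edgeR adjusted p = 0.310).

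Stem cell genes had shares on both sides of 50%. NANOG, a core pluripotency factor, had 86.9%, 82.5% and 90.5% of its reads at a site 3085 bp downstream in CFIm25 KO and 89.7% and 91.2% in control. SALL4, a zinc-finger factor of the same network, had 91.0%, 87.9% and 85.4% in CFIm25 KO and 87.1% and 86.9% in control. L1TD1, an RNA-binding protein of embryonic stem cells, had 67.8%, 66.2% and 61.5% in CFIm25 KO and 68.0% and 68.2% in control. The groups overlapped for NANOG and SALL4, and all CFIm25 KO libraries were lower for L1TD1, whose ratio of downstream to annotated reads did not pass the test (log2 change -0.19, SE 0.234, edgeR adjusted p = 0.847). POU5F1, the OCT4 gene, had 20.7%, 17.4% and 19.3% in CFIm25 KO and 22.4% and 18.8% in control, at a site 856 bp downstream that lay in no gene. SFRP2 had 36.3%, 37.3% and 37.6% in CFIm25 KO and 28.2% and 26.6% in control, with no overlap. Its ratio did not pass the test either (log2 change 0.64, SE 0.225, edgeR adjusted p = 0.242). The shares of DNMT3B, OTX2 and TRIM71 overlapped between the groups. RPL6, NANOG and POU5F1 have processed pseudogenes, and reads were reported at a single alignment each, so that these counts are uncertain.

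**Figure D3:**
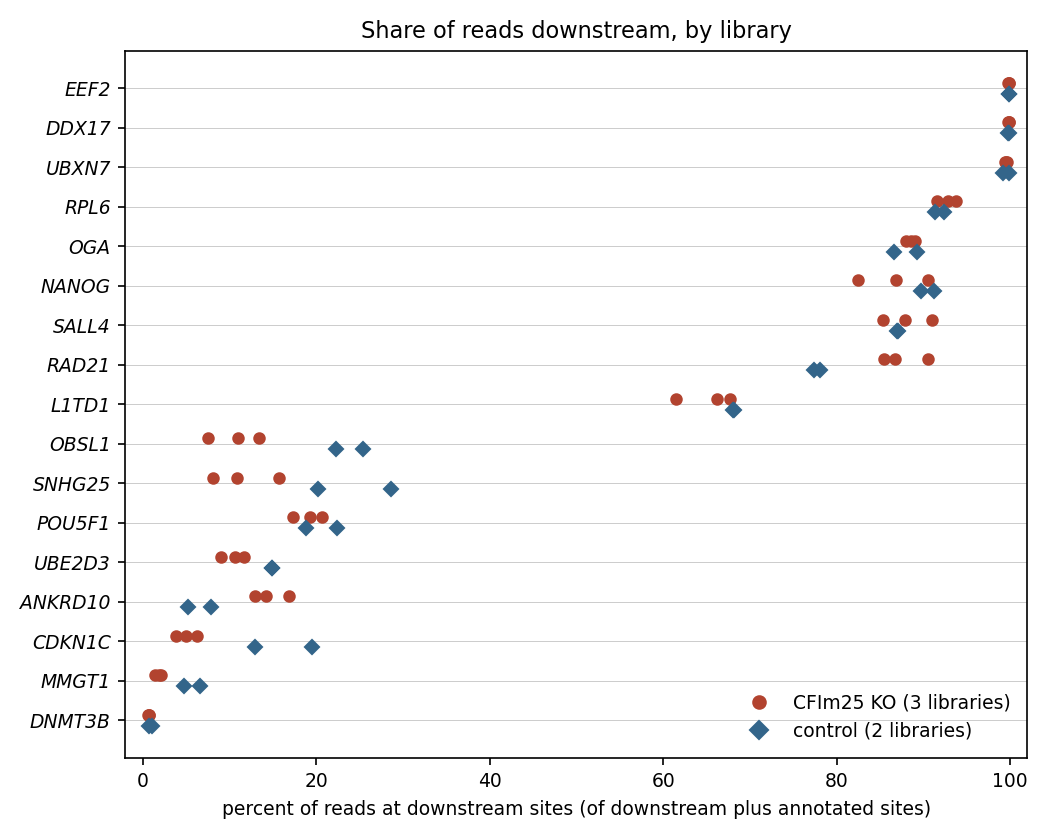
Percent of a gene's reads at downstream sites, of downstream plus annotated sites (x axis), for 17 genes, with 1 point per library: circles for CFIm25 KO (n = 3), diamonds for control (n = 2). EEF2, DDX17 and UBXN7 lie above 99% in all libraries. The CFIm25 KO and control points are apart for OBSL1, SNHG25, ANKRD10, CDKN1C, MMGT1, RAD21 and UBE2D3, and by less for L1TD1 and EEF2.

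As a share of all nuclear reads, the downstream sites took 4.69%, 4.74% and 4.54% in the CFIm25 KO libraries and 4.48% and 4.53% in the control libraries. All 3 CFIm25 KO values were above both control values, with means of 4.66 ± 0.103% (SD, n = 3) and 4.50 ± 0.0355% (SD, n = 2). The difference was 0.153 percentage points. Exact permutation of the library labels (two-sided) gave p = 0.2, and the smallest p it can give is 0.1. Without the 10 sites with the most reads the difference was 0.0592 points. The median over genes of the log2 ratio of downstream to annotated reads was -1.71, -1.57 and -1.65 in CFIm25 KO and -1.67 and -1.64 in control. These values overlapped (difference 0.0094, exact permutation p = 0.9).

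Single sites were compared between the groups with edgeR over all 24722 sites that passed its filter on low counts, of which 1504 were downstream sites. Adjusted p was under 0.05 for 0.101% of all tested sites and for 1 of the downstream sites. The unadjusted p was under 0.05 for 142 downstream sites (9.44%), against 8.11% of all tested sites, with 84 higher in CFIm25 KO (5.59%, against 4.11%) and 58 lower (3.86%, against 4.01%). The groups did not overlap for 214 sites that were higher (14.2%, against 12.6% of all tested sites) and for 166 that were lower (11.04%, against 13.3%). The median log2 fold change was 0.04 over the downstream sites and 0.01 over all tested sites, and it was above 0 for 54.1% of downstream sites and 50.6% of all. Without CFIm25 KO 3 the number of downstream sites called was 20, which is 1.31% of those tested, against 1.32% of all sites tested in that fit. Without CFIm25 KO 1 and CFIm25 KO 2 it was 2 and 3 (0.142% and 0.213%, against 0.123% and 0.157%).

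**Figure D4:**
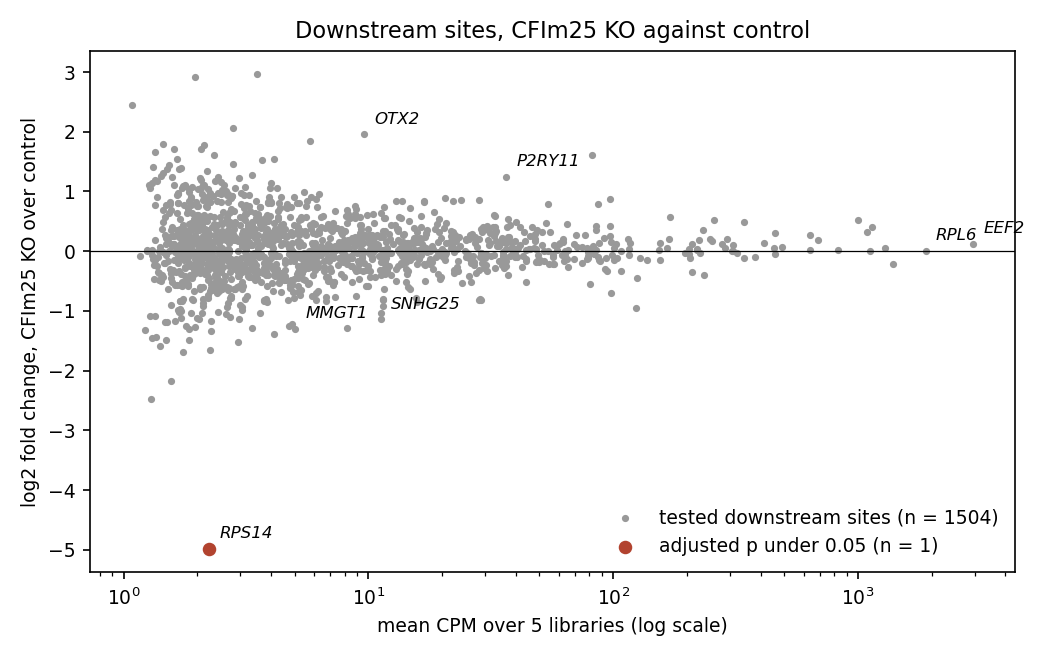
Log2 fold change, CFIm25 KO over control (y axis), against the mean CPM over 5 libraries (x axis, log scale) for the 1504 tested downstream sites, with 1 point per site. The RPS14 site is the 1 called site, at -4.98, and the sites with the most reads lie near 0.

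The called site lay 9890 bp beyond an annotated 3′ UTR site of RPS14, which encodes a protein of the small ribosomal subunit, at position 150434347 on the minus strand of chromosome 5. No gene of that strand covers it, and it is 8288 bp past the annotated end of RPS14. It held 1, 1 and 1 reads in the CFIm25 KO libraries, against 22 and 34 reads in the control libraries. Every CFIm25 KO library was lower than either control library, and the depth-scaled ratio of CFIm25 KO to control was 0.0280 (95% exact interval 0.0056 to 0.0860, counting error only). The fitted log2 fold change was -4.98 (edgeR adjusted p = 0.00225). With 1 read in each CFIm25 KO library, the site met the authors' limit on summed RPM and edgeR's low-count filter only through the control libraries. It was thus admitted for being high in control, and its p is not independent of that choice. Without control 2 the log2 fold change was -4.62 and the adjusted p 0.232. DESeq2 gave a log2 fold change of -5.16 with an unadjusted p of 7.2e-07, and no adjusted p for this site.

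RPS14 had a further downstream site, named here after its values were seen, 4718 bp beyond the same upstream site and also in no gene. It held more reads in every CFIm25 KO library, with 20, 37 and 45 reads in CFIm25 KO against 7 and 0 reads in control, and did not pass the test (edgeR adjusted p = 0.487). Together the 2 sites held between 0.130% and 0.418% of the reads of RPS14, which had 9558 to 16107 reads per library at its annotated sites.

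The sites with the smallest p among those of at least 3 log2 CPM did not pass the adjusted threshold, and none overlapped between the groups. On the higher side, the site 7614 bp beyond AC007326.5 held 129, 107 and 118 CPM in CFIm25 KO, against 58.4 and 70.8 CPM in control (log2 fold change 0.87, SE 0.153, edgeR adjusted p = 0.0545). P2RY11, a purinergic receptor gene, had 42.8, 63.2 and 37.01 CPM in CFIm25 KO, against 18.4 and 21.8 CPM in control, at its annotated end shown above (log2 fold change 1.25, adjusted p = 0.105). ACOT9, a mitochondrial acyl-CoA thioesterase, had 65.1 ± 4.55 CPM in CFIm25 KO and 37.6 ± 2.27 CPM in control. These 3 sites had an adjusted p under 0.05 with DESeq2.

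ZNF528, a zinc-finger gene, and LNCPRESS1, a long noncoding RNA of pluripotent cells, completed this set. ZNF528 had 34.6 ± 5.81 CPM in CFIm25 KO and 19.1 ± 1.62 CPM in control, at a site in no gene. The site 3217 bp beyond LNCPRESS1 was the end of another annotated gene, and had 25.2 ± 1.69 CPM in CFIm25 KO and 13.6 ± 3.62 CPM in control.

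On the lower side, SNHG25, a small nucleolar RNA host gene, had 8.77, 7.001 and 6.86 CPM in CFIm25 KO, against 19.9 and 13.5 CPM in control (log2 fold change -1.14, SE 0.250, edgeR adjusted p = 0.150). H3F3B, a gene of the replacement histone H3.3, had 67.6 ± 3.19 CPM in CFIm25 KO and 99.3 ± 8.56 CPM in control. HLA-DQB1 had 8.40 ± 0.987 CPM in CFIm25 KO and 16.0 ± 2.49 CPM in control. SMC1A, a cohesin subunit, had 8.79 ± 0.531 CPM in CFIm25 KO and 15.6 ± 1.83 CPM in control, and OBSL1, a cytoskeletal adaptor, had 7.92 ± 2.41 CPM in CFIm25 KO and 16.3 ± 1.95 CPM in control.

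A change in a single site can follow its gene, so each site was also compared with the other sites of its gene in edgeR's usage test. Of 16268 sites tested, 0.043% were called, and of 1461 downstream sites 1 was called, the same RPS14 site (log2 change relative to the gene -3.53, edgeR adjusted p = 0.00203). That site entered this test, too, only through the control libraries. With 1 library left out, 2 or 3 downstream sites were called, whichever library it was, which is 0.112% to 0.169% of those tested, against 0.0804% to 0.147% of all sites. The unadjusted p was under 0.05 for 66 downstream sites (4.52%), against 3.51% of all sites tested. Among sites of at least 3 log2 CPM, ANKRD10 had a log2 change of 0.80 (edgeR adjusted p = 0.0506). RPS23, of the small ribosomal subunit, and 2 sites beyond LNCPRESS1 had changes of 0.52, 0.60 and 0.73, and did not pass. Over all 3 of its downstream sites, the share of LNCPRESS1 was lower in CFIm25 KO. It was 89.6%, 92.0% and 89.8% in CFIm25 KO, against 94.1% and 94.9% in control. The ratio of its downstream to annotated reads did not pass the test (log2 change -0.86, edgeR adjusted p = 0.190). Relative usage was lower in CFIm25 KO for the sites of OBSL1 and SNHG25, with log2 changes of -0.83 and -0.79. UBE2D3, a ubiquitin-conjugating enzyme, TCFL5 and C1orf52 had changes of -0.36, -0.38 and -0.40. None of these lower sites passed the usage test.

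Summed over the downstream sites of a gene and set against the reads at its annotated sites, 3 of 1221 genes were called (0.246%). All tested genes have a downstream site, so that they are their own background. The unadjusted p was under 0.05 for 139 genes (11.4%), with 79 higher in CFIm25 KO (6.47%) and 60 lower (4.91%). The fitted ratio was above 0 for 681 genes (55.8%), with a median log2 change of 0.06. The percent downstream did not overlap between the groups for 217 genes that were higher (17.8%) and 147 that were lower (12.0%). The count of calls was 9 without CFIm25 KO 1 and 0 without control 2.

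MMGT1, a subunit of the membrane protein insertase EMC, had 1.87%, 1.42% and 2.09% of its reads downstream in CFIm25 KO, against 6.59% and 4.81% in control. Its log2 change was -1.72 (SE 0.306, edgeR adjusted p = 0.0058). The downstream site held 23, 19 and 21 reads in CFIm25 KO and 45 and 37 reads in control, at the annotated last base 1484 bp from the upstream site. All CFIm25 KO libraries were below both control libraries, and the call was lost without control 1 (log2 change -1.48, adjusted p = 0.378) and without control 2 (-1.96, 0.130).

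ANKRD10, an ankyrin-repeat gene, had 14.2%, 12.9% and 16.9% downstream in CFIm25 KO, against 7.82% and 5.23% in control, at a site 82 bp beyond its annotated 3′ UTR site. The log2 change was 1.30 (SE 0.248, edgeR adjusted p = 0.0087), with no overlap between the groups. The call was lost without CFIm25 KO 3 (log2 change 1.18, adjusted p = 0.0984) and without control 2 (1.01, 0.434).

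OBSL1 had 10.9%, 7.49% and 13.4% downstream in CFIm25 KO, against 25.4% and 22.3% in control, at an annotated end 4425 bp beyond an intronic site. The log2 change was -1.44 (SE 0.288, edgeR adjusted p = 0.011), again with no overlap. The call was lost without CFIm25 KO 2 (log2 change -1.21, adjusted p = 0.156), control 1 (-1.32, 0.447) or control 2 (-1.56, 0.266), and with only 3′ UTR sites as the gene's reads (-1.30, 0.0630). SNHG25, MYL12B, RAD21, NPTX2 and CDKN1C came next, each with an adjusted p of 0.0519. CDKN1C, an inhibitor of cyclin-dependent kinases, had 5.04%, 3.85% and 6.25% downstream in CFIm25 KO, against 12.9% and 19.5% in control. MYL12B, a myosin light chain, had 1.95%, 2.55% and 2.96% in CFIm25 KO, against 0.560% and 0.729% in control.

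**Figure D5:**
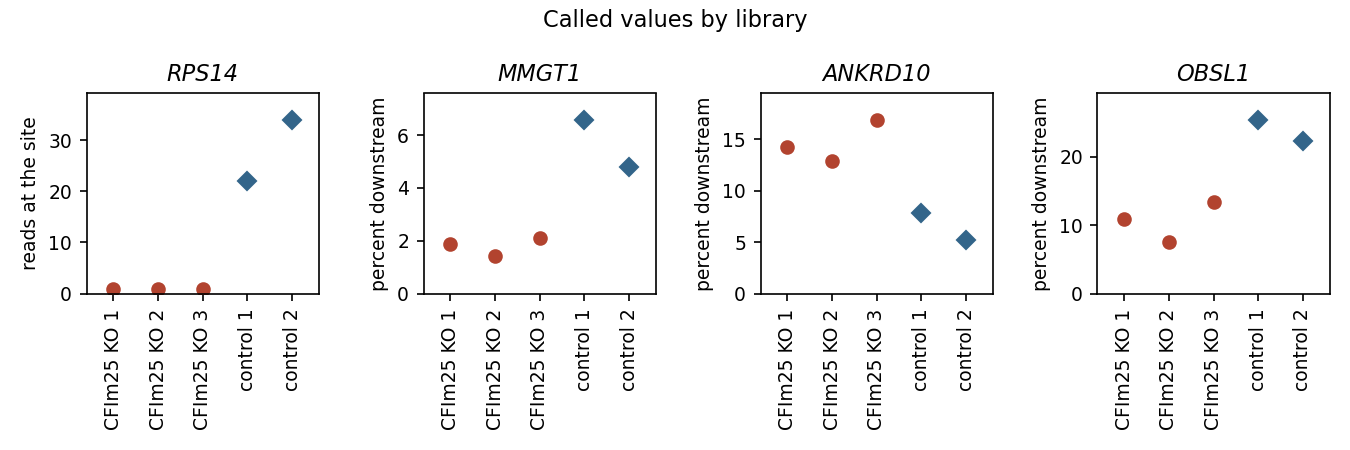
Reads at the RPS14 site 9890 bp downstream (left panel) and percent of reads downstream for MMGT1, ANKRD10 and OBSL1 (other panels), with 1 point per library: circles for CFIm25 KO, diamonds for control. The groups do not overlap in any panel: RPS14 has 1 read in each CFIm25 KO library against 22 and 34 in control.

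None of the sites in the lists by function passed edgeR's site test at the adjusted threshold. Of 23 core pluripotency genes, 8 had a downstream site, with 10 sites in all. Of these, 8 were tested, 0 were called at the adjusted threshold, and the median log2 fold change was -0.01, against 0.01 over all tested sites. The NANOG site had 36.1, 16.8 and 65.7 CPM in CFIm25 KO, against 44.1 and 50.3 CPM in control, and POU5F1 had 44.4 ± 5.66 CPM in CFIm25 KO and 43.9 ± 1.90 CPM in control. Both overlapped, and SALL4 was the 1 tested site of the list whose groups did not, at 95.1 ± 11.7 CPM in CFIm25 KO and 70.8 ± 12.5 CPM in control. OTX2, a homeobox gene of the early neural lineage, had 240 reads in CFIm25 KO 2, against 31 and 7 reads in the other CFIm25 KO libraries and 24 and 13 in control. CFIm25 KO 2 also had the highest ectoderm and neural marker sum, 279.7 CPM, of which SIX3 gave 105.6 CPM, and the part of this in the OTX2 value was not tested.

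Of 27 factors of 3′ end processing, CPSF2, CPSF4 and CSTF2T had a downstream site, and 0 of the 3 sites were called. CPSF4, a subunit of the hexamer-binding complex, had 42.3 ± 0.805 CPM in CFIm25 KO and 46.5 ± 1.52 CPM in control. Among genes known as CFIm25 targets from other cells, GSK3B and PAK1 had 1 downstream site each and VHL had 2, and 0 of these were called. The GSK3B site was lower in every CFIm25 KO library, at 24.8 ± 1.40 CPM in CFIm25 KO and 32.0 ± 2.56 CPM in control (edgeR adjusted p = 0.604). Of 7 transcripts taken from the study as a list, DCTN5, which encodes a part of dynactin, had a downstream site, with 8.85 ± 0.920 CPM in CFIm25 KO and 15.4 ± 0.0559 CPM in control (adjusted p = 0.330). The replication-dependent histone genes, whose RNAs normally end without a poly(A) tail, had sites in 6 genes and 0 downstream sites.

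Fold changes were also grouped by the number of TGTA motifs. The median log2 fold change was 0.02 over the 489 tested downstream sites with no TGTA in the stretch 100 to 41 bases before the site, 0.05 over the 296 with 1, and 0.09 over the 92 with 2 or more. For annotated 3′ UTR sites these medians were 0.01 over 9141 sites, 0.01 over 4780 and 0.00 over 1920. For distant unannotated sites they were 0.03 over 620 sites, 0.04 over 292 and 0.02 over 117. They are descriptions, with no test, and all sites share the same 5 libraries.

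Genes with many downstream sites spread them over several kinds of place. CAPRIN1, a stress granule protein, had 7 sites, of which 2 were at annotated ends and 5 inside its annotated exons, with mean levels of 1.21 to 39.9 CPM, and all 7 overlapped between the groups. LNCPRESS2, a long noncoding RNA, also had 7 sites, 3 in introns and 4 in no gene, at 1.85 to 15.7 CPM, of which 6 overlapped. C11orf58 and LRRN1 had 6 sites each and lay mostly in their own exons, with 5 and 4 exonic sites. CENPI, a centromere protein gene, had 5 sites at 1.61 to 5.80 CPM.

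CBS, which makes cystathionine from homocysteine, and CBSL, its near-identical copy on chromosome 21, had 5 sites each. All 5 lay at the same distances downstream of both genes, and the read totals of the pairs differed by a factor of 1.00 to 1.02. The site at 1866 bp held 9532 reads for CBS and 9432 reads for CBSL over the 5 libraries. The counting reported each read at a single position, so these values cannot be assigned to either copy.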

How the data were processed

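Poly(A)+ RNA of 3 CFIm25 KO and 2 control H9 libraries was sequenced from the 3′ end (QuantSeq Rev). Reads were turned to the transcript strand by the authors and aligned with Bowtie2 (at most 2 mismatches, 1 alignment kept, version not given in the sources used here). Read ends gave the poly(A) positions, which were clustered after removal of internal priming. The authors deposited raw read counts per site and library, RPM values, their sum as a score, and a fold ratio and a p-value per site. The last 2 hold their own comparison and were not used. They kept sites with a summed RPM of at least 5. The labels name hg19, but the positions lie in GRCh38, so sites were placed on GENCODE 44 exons and RefSeq genes by their recorded GRCh38 positions. The upstream genes of 1889 of the 1902 sites matched by identifier or symbol. No genome sequence of that build was used here.

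The counts went into quasi-likelihood tests of edgeR 4.0.16 (R 4.3.3), two-sided and robust, after filterByExpr and TMM scaling, with Benjamini-Hochberg adjustment at 0.05. Usage was tested with diffSpliceDGE, and downstream against annotated reads as an interaction over both counts of a gene. CPM uses TMM library sizes. Shares and median ratios (pseudocount of 1 read) were compared by exact permutation. Tested on simulated counts, the site test called 13% of 2-fold and 64% of 4-fold changes among 24722 sites, with 13 unchanged sites called. The usage test called 1.06% of 2-fold and 20% of 4-fold changes among 16008 sites, with 23 other sites called. A site that shares a gene with a changed site shifts in relative usage, so these 23 are not a count of false calls. The test of downstream against annotated reads called 22.9% and 73.75% among 1110 genes, with 1 unchanged gene called.

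The downstream sites and gene lists were chosen with earlier results of these data known. Named sites were those called, the 5 smallest p per direction with log2 CPM of at least 3, the 10 highest in CPM, the genes with most sites or the highest downstream percent, and list members. The 25 bp tolerance for an end was chosen after seeing the data. Alternatives were DESeq2 1.42.0 and its size factors, library totals, no filter, a replicate block, other distances and denominators, and leaving out each library. Reads carry no molecular identifiers, so the interval covers counting error only. A member of the list of known CFIm25 targets is not reported here.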

Additional observations from a re-analysis of the deposited data

How the results depend on the processing

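The called downstream sites numbered 1 with edgeR and 3 with DESeq2 (of 78 over all sites), where RPS14 had an unadjusted p of 7.2e-07 but no adjusted p, and 0 with the distance limited to 5000 or 1000 bp, which leaves out the RPS14 site. Leaving out 1 library gave 1 to 20, with 20 (1.31%, against 1.32% of all sites) without CFIm25 KO 3. Site usage gave 0 up to 5000 bp and 2 to 3 with a library left out. Genes called for downstream against annotated reads numbered 6 up to 5000 bp, 8 from 200 bp, and 0 to 9 with a library left out. With the replicate block, 42 downstream sites were called (26 higher, 16 lower), which is 2.79% of those tested, against 2.52% of all sites. No control library has replicate number 3, so the block takes CFIm25 KO 3 out of the comparison. It is therefore not separate from leaving that library out, and 19 of those 20 sites were also called with the block. Nothing in the labels pairs the libraries by these numbers, since only 2 are shared and no common day is named. The same-numbered libraries correlated at 0.08 and 0.01 in their deviations from the group means. With 2 control libraries the control deviations mirror each other, so these correlations cannot settle whether the libraries are paired. The NUDT21 change was -0.78 to -0.75 with a library left out. The median ratio of downstream to annotated reads reversed to -0.0401 up to 1000 bp and was -0.0264 to 0.0419 with a library left out. With library totals, RPL6 was -0.0250, GDI2 -0.0313 and IGF2BP1 -0.0103. With a library left out, RPL6 was -0.0348 to 0.0499, DPYSL3 -0.0134 to 0.115, GDI2 -0.0925 to 0.0977 and IGF2BP1 -0.0718 to 0.123. Without either control, the lone control was assumed to vary like the other libraries. These 4 sites were near 0 throughout, and the cause of the other differences was not tested. The share of nuclear reads kept its sign under all alternatives run, between 0.0362 and 0.211 points. Placement moved little with the end tolerance: ends of the upstream gene numbered 851 at 10 bp and 950 at 100 bp. The median site held 16 to 25 reads, and the site test called 13% of simulated 2-fold changes, so that an uncalled site can differ.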
